A study of Solanum lycopersicum with 4 samples.

Results

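Ethylene is perceived by a family of membrane-bound receptors, and the EIN3-like (EIL) transcription factors act at the nuclear end of the pathway that they control. The 10 genes described here were chosen by gene ID: the receptor genes ETR1 (Solyc12g011330), ETR2 (Solyc07g056580), NR (NEVER RIPE, also called ETR3, Solyc09g075440), ETR4 (Solyc06g053710), ETR5 (Solyc11g006180) and ETR6 (Solyc09g089610), and the EIN3-like genes EIL1 (Solyc06g073720), EIL2 (Solyc01g009170), EIL3 (Solyc01g096810) and EIL4 (Solyc06g073730). All 10 were present among the 33976 tomato genes quantified. RNA from floral apices and closed flower buds was sequenced in 2 libraries of 156OE, plants of the MT background that overexpress miR156, and in 2 libraries of MT itself, a label that usually stands for Micro-Tom, a dwarf tomato. The sources used here do not give the promoter of the transgene, the number of transgenic lines or the number of plants per library. Nor do they say that replicates were separate plants; the p-values therefore reflect the spread among these libraries, which may be technical.

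As background, the receptors bind ethylene and are negative regulators: without the hormone they keep the kinase CTR1 active, and binding of ethylene switches them off. The membrane protein EIN2 then passes the signal on, and EIN3-like proteins, otherwise removed with the help of the F-box proteins EBF1 and EBF2, activate ethylene-responsive genes. In tomato this pathway is best known from fruit ripening, where a dominant NR mutation blocks the process, and it also acts in the senescence and shedding of flowers. ETR1, ETR2 and NR belong to receptor subfamily I and ETR4, ETR5 and ETR6 to subfamily II.

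The 156OE libraries held 8440384 and 1685657 assigned reads, against 11203505 and 9369713 in MT, so each value of 156OE replicate 2 rests on the fewest reads. The 156OE pair also varied more over all genes, with a common dispersion of 0.0883, against 0.00664 in the MT pair. The summed level of 4 SBP-box genes, the family that miR156 targets, was 92.8 and 57.5 TPM (a transcript level corrected for length and library depth) in 156OE and 283 and 304 TPM in MT. Markers of floral organs differed between the 156OE libraries. The summed level of 8 floral organ genes was 490 and 215 TPM in 156OE replicates 1 and 2, against 360 and 366 TPM in MT, and that of 5 apex and meristem genes was 332 and 220 TPM, against 356 and 345 TPM. The leaf marker RBCS3, a Rubisco small subunit gene, stood at 354 and 693 TPM in 156OE and 213 and 209 TPM in MT. Of the listed ripening fruit genes, PG2A, a polygalacturonase gene, had no read in any library. RIN had 0.968 and 0.392 TPM in 156OE and 0.948 and 1.68 TPM in MT. Solyc03g031860, whose symbol was not matched, had 12.3 and 11.5 TPM in 156OE and 9.8 and 13.7 TPM in MT. The pollen gene LAT52 had at most 0.19 TPM, in MT replicate 2. The other listed pollen gene, LAT56, had 1.22 and 0.848 TPM in 156OE and 4.71 and 3.55 TPM in MT, with -1.76 ± 0.39 as log2 change (SE; edgeR adjusted p = 0.302) and 2 reads in 156OE replicate 2. In such bulk tissue, fewer cells of a type and less RNA per cell cannot be told apart.

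EIL4 had the clearest difference among the 10 genes, although it did not pass the threshold over all genes. Its level was higher in both 156OE libraries than in both MT libraries, by 1.64-fold in counts scaled between libraries. The difference was smaller in TPM, where EIL4 averaged 28.8 in 156OE and 19.8 in MT. The other 3 EIL genes and the 6 receptor genes had 95% intervals that included no change. No member passed edgeR's quasi-likelihood test at an adjusted p of 0.05 over all 18385 genes tested, a rule that called 0.00544% of all genes, and none passed in DESeq2, which called 1.01%. At an unadjusted p of 0.05, EIL4 was the only member of 10, and it was higher, where 6.28% of all tested genes were higher and 11.4% were past it in either direction. That count is thus near the background. The median log2 change of the 10 members was 0.08, beside 0.01 over all tested genes. All 10 passed the filter on low counts.

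**Figure D1:**
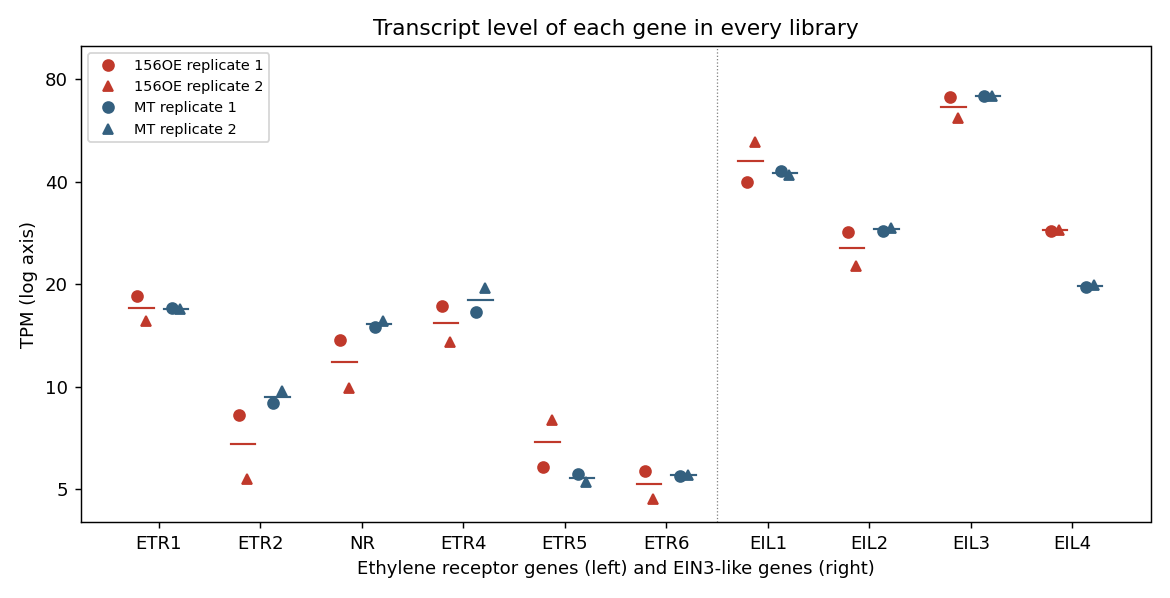
Level of each gene in TPM (log axis) in each library, with 156OE left of MT. Circles are replicate 1, triangles are replicate 2 and bars are the means of 2 libraries. EIL4 is near 29 TPM in both 156OE libraries and near 20 TPM in both MT libraries. The means of the other genes lie closer together between genotypes. Single libraries can lie farther apart, as ETR2 does in 156OE replicate 2, at 5.35 TPM against an MT mean of 9.34 TPM.

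The EIL genes were present at higher levels than the receptor genes in all 4 libraries. Per transcript length, the 4 EIL genes summed to 168 and 165 TPM in 156OE, against 163 and 162 TPM in MT. The 6 receptors summed to 69.2 and 57.1 TPM in 156OE and to 68.5 and 72.3 TPM in MT. The ratio of these sums was 2.42 and 2.89 in 156OE and 2.37 and 2.24 in MT, so both 156OE libraries lay above MT, replicate 1 by less than the MT libraries differed from each other. EIL3, an EIN3-like transcription factor gene, had the highest level of the 10, with 70.6 and 61.5 TPM in 156OE and 71.4 and 71.1 TPM in MT. Its percentile among all genes was between 91.7 and 92.1 in each library. EIL1 came next, at 39.95 and 52.2 TPM in 156OE and 42.95 and 41.7 TPM in MT. EIL4 and EIL2 exchanged places between genotypes. EIL4 was the third in 156OE, at 28.6 and 28.9 TPM, above EIL2 at 28.5 and 22.5 TPM, although EIL4 and EIL2 were close in 156OE replicate 1. In MT, EIL2 was the third at 28.6 and 29.3 TPM and EIL4 the fourth at 19.7 and 19.8 TPM.

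Among the receptor genes, ETR1, ETR4 and NR had the higher levels and ETR2, ETR5 and ETR6 the lower ones. ETR1 had 18.5 and 15.6 TPM in 156OE and 16.96 and 16.9 TPM in MT. ETR4 had 17.3 and 13.5 TPM in 156OE and 16.6 and 19.4 TPM in MT, and the ranges of ETR1 and ETR4 overlapped in each genotype. NR followed at 13.7 and 9.94 TPM in 156OE, where its range overlapped that of ETR4, and at 15.0 and 15.5 TPM in MT, where it lay below both. ETR2 had 8.24 and 5.35 TPM in 156OE and 8.97 and 9.71 TPM in MT. ETR5 had 5.82 and 7.98 TPM in 156OE and 5.53 and 5.24 TPM in MT. ETR6 had 5.67 and 4.67 TPM in 156OE and 5.48 and 5.51 TPM in MT. In 156OE the ranges of ETR5 and ETR2, and of ETR2 and ETR6, overlapped, while in MT ETR2 was above the other pair.

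To compare a gene between genotypes, counts were scaled between libraries by the trimmed mean of M values (TMM) and are given below as scaled CPM (read counts relative to library size). EIL4, an EIN3-like transcription factor gene, had 44.6 and 52.3 CPM in 156OE, against 29.2 and 29.2 CPM in MT. The genotypes did not overlap, and the gap between the 156OE libraries was smaller than the gap between genotypes. The log2 change was 0.71 ± 0.14 (SE, n = 2 per genotype), with a 95% interval of the fold from 1.29 to 2.09 and an edgeR adjusted p of 0.264 over all genes (DESeq2 adjusted p = 0.23). In 156OE replicate 2 the value rests on 80 reads, with an exact 95% Poisson interval from 63.4 to 99.6 reads that covers counting error only. EIL4 was called over all genes when either 156OE library was left out. Without replicate 1 the log2 change was 0.84 (edgeR adjusted p = 0.0154), in a fit that called 8.16% of all genes higher. Without replicate 2 it was 0.61 (edgeR adjusted p = 0.0255), where 3.45% of all genes were called higher. In those fits the lone 156OE library is assumed to vary as the MT pair does. EIL4 was not called without either MT library, at log2 changes of 0.72 and 0.72 (edgeR adjusted p of at least 0.988), where the spread came from the 156OE pair. Several marker levels also separated the genotypes: RBCS3 was higher in both 156OE libraries, and the apex and meristem sum, LAT56 and the SBP-box sum were lower in both. The apex and meristem genes did not move together. In scaled CPM only Solyc03g118160 was lower without overlap, at 64.7 and 45.1 CPM in 156OE and 114 and 98.6 CPM in MT. TKN2 and CLV3 were higher in both 156OE libraries, and AN and WUS overlapped. The part of these markers in the EIL4 difference was not tested. Nor was that of the floral organ sum, which was above MT in 156OE replicate 1 and below MT in replicate 2.

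EIL1 and EIL4 carry neighbouring IDs on chromosome 6, and no protein-coding gene lies between them in the RefSeq gene table (assembly SLM_r2.1). EIL1 had 62.8 and 95.4 CPM in 156OE replicates 1 and 2, against 64.4 and 61.9 CPM in MT. Only 156OE replicate 2 was high, and the genotypes overlapped. The log2 change of EIL1 was 0.30 ± 0.21 (SE; edgeR adjusted p = 0.612). Without 156OE replicate 1 it was 0.59, and without replicate 2 it was -0.01. In such fits the lone 156OE library is assumed to vary as the MT pair does. EIL4 had values above MT in both 156OE libraries and EIL1 in replicate 2.

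The estimated reads of EIL1 were not whole numbers, by more than 0.01, in 4 of 4 libraries and those of EIL4 in 3 of 4, as was also so in 3 of 4 libraries for ETR1, NR, ETR4, EIL2 and EIL3. Salmon divides reads that fit more than 1 transcript, so the split of reads between paralogs can be less certain than their sum. These values do not show which genes shared reads. The reads of EIL1 and EIL4 summed to 929.701 and 226 in 156OE and to 1083.369 and 880.196 in MT. The sum was thus a whole number in 156OE replicate 2 only. When the reads of both genes were summed into 1 feature, an alternative chosen after the data were seen, the log2 change was 0.45 ± 0.18 (SE; edgeR adjusted p = 0.437). Within a library, the TPM of EIL4 was 0.717 and 0.554 times that of EIL1 in 156OE and 0.458 and 0.476 times in MT. This ratio needs no scaling between libraries, and it was higher in both 156OE libraries. On the log2 scale the ratio averaged -0.67 ± 0.26 in 156OE and -1.10 ± 0.04 in MT (SD, n = 2 each), a difference of 0.43 (two-sided exact permutation p = 0.33, the smallest that 2 libraries against 2 can give).

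EIL2 and EIL3 were close to their MT levels. EIL2 had 62.6 and 57.5 CPM in 156OE and 59.8 and 60.7 CPM in MT, so the 156OE libraries lay on either side of MT. Its log2 change was 0.00 ± 0.11 (SE), with a 95% interval of the fold from 0.822 to 1.22. EIL3 had 122 and 124 CPM in 156OE and 118 and 117 CPM in MT, a log2 change of 0.07 ± 0.10 (SE) with an interval of the fold from 0.876 to 1.26. The scaled values of EIL3 did not overlap, but the direction depends on the scaling: with library totals only, the log2 change of EIL3 was -0.02, and its deposited TPM was lower in both 156OE libraries.

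**Figure D2:**
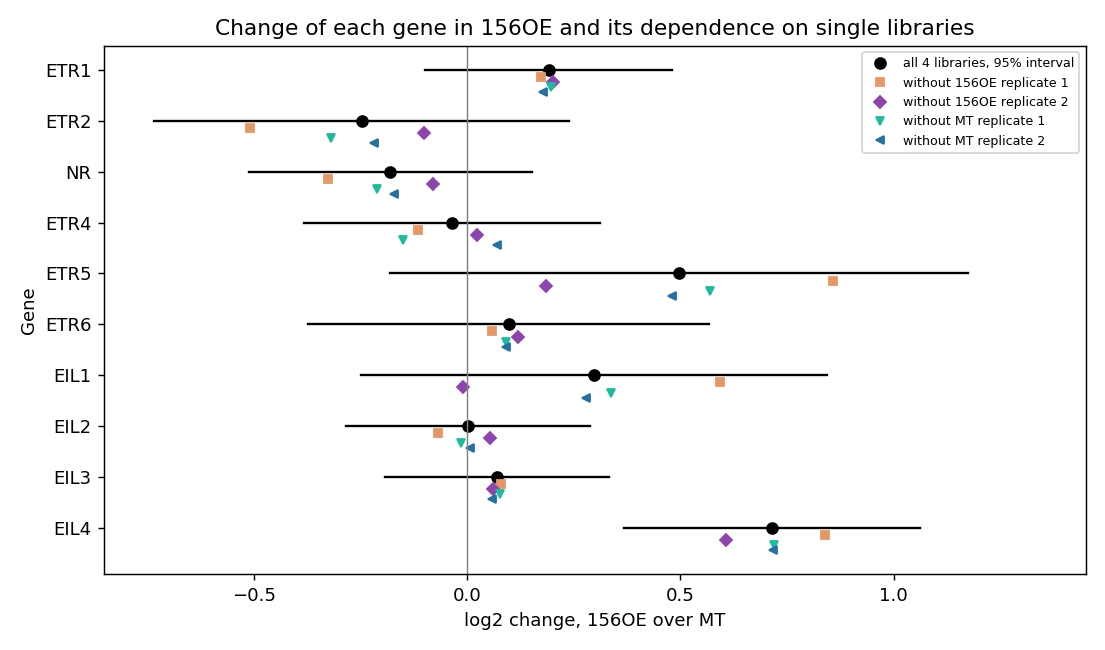
Log2 change of each gene, 156OE over MT, with its 95% interval (black) and the value when each library is left out (coloured symbols). The interval of EIL4 lies above 0, from 0.37 to 1.06, and those of the other 9 genes include 0.

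None of the subfamily I receptor genes passed the test. ETR1 had 44.7 and 43.8 CPM in 156OE and 39.0 and 38.5 CPM in MT. The scaled values of the genotypes did not overlap, and the log2 change was 0.19 ± 0.11 (SE; edgeR adjusted p = 0.549), and it was 0.005 in limma on log2(TPM + 0.1). NR, the receptor gene mutated in Never ripe, had 51.9 and 43.8 CPM in 156OE and 54.1 and 55.6 CPM in MT, with -0.18 ± 0.13 as log2 change (SE; edgeR adjusted p = 0.616). ETR2 had 20.8 and 15.7 CPM in 156OE and 21.5 and 23.1 CPM in MT, with -0.25 ± 0.19 as log2 change (SE; edgeR adjusted p = 0.634). For NR and ETR2 both 156OE libraries lay below MT, and replicate 2 was the lower of them in each case. The ETR2 value of 156OE replicate 2 rests on 24 reads, with an exact 95% Poisson interval from 15.4 to 35.7 reads. The 95% intervals of the fold ran from 0.935 to 1.4 for ETR1, from 0.701 to 1.11 for NR and from 0.602 to 1.18 for ETR2.

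In subfamily II, ETR5 had the largest log2 change of the 6 receptor genes, and it rested on 156OE replicate 2. ETR5 had 15.6 and 24.8 CPM in 156OE replicates 1 and 2, against 14.1 and 13.3 CPM in MT. Its log2 change was 0.50 ± 0.27 (SE; edgeR adjusted p = 0.52), which was 0.86 without 156OE replicate 1 and 0.19 without replicate 2, where it was not called either (edgeR adjusted p = 0.0629 and 0.661). The count in replicate 2 was 38 reads (exact 95% Poisson interval 26.9 to 52.2 reads). ETR4 had 48.1 and 43.8 CPM in 156OE and 43.8 and 51.0 CPM in MT, and the genotypes overlapped (log2 change -0.03 ± 0.14, SE). ETR6 had 13.6 and 13.1 CPM in 156OE and 12.5 and 12.5 CPM in MT, a log2 change of 0.10 ± 0.18 (SE) on 20 reads in 156OE replicate 2.

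For 8 of the 10 members the 95% interval lay between a 0.5-fold and a 2-fold level; the exceptions were EIL4, with an upper bound of 2.09, and ETR5, with an upper bound of 2.26. In scaled CPM, ETR1, ETR5, ETR6, EIL3 and EIL4 were higher in 156OE without overlap, 5 of 10, where 22.8% of all tested genes were, and ETR2 and NR were lower without overlap, 2 of 10, where 23.8% were. This tally depends on the measure. In deposited TPM, only ETR5 and EIL4 were higher without overlap, and ETR1 and ETR6 overlapped. EIL3, EIL2, ETR2 and NR were lower in both 156OE libraries, EIL2 only narrowly in replicate 1. The median log2 gap between the libraries of a pair was 0.18 for the members in 156OE and 0.03 in MT, beside 0.29 and 0.14 over all tested genes, which were not matched for level. ETR5, EIL1 and ETR2, at 0.66, 0.60 and 0.40, lay above the median of all genes in 156OE, and ETR4, at 0.22, above that in MT.

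**Figure D3:**
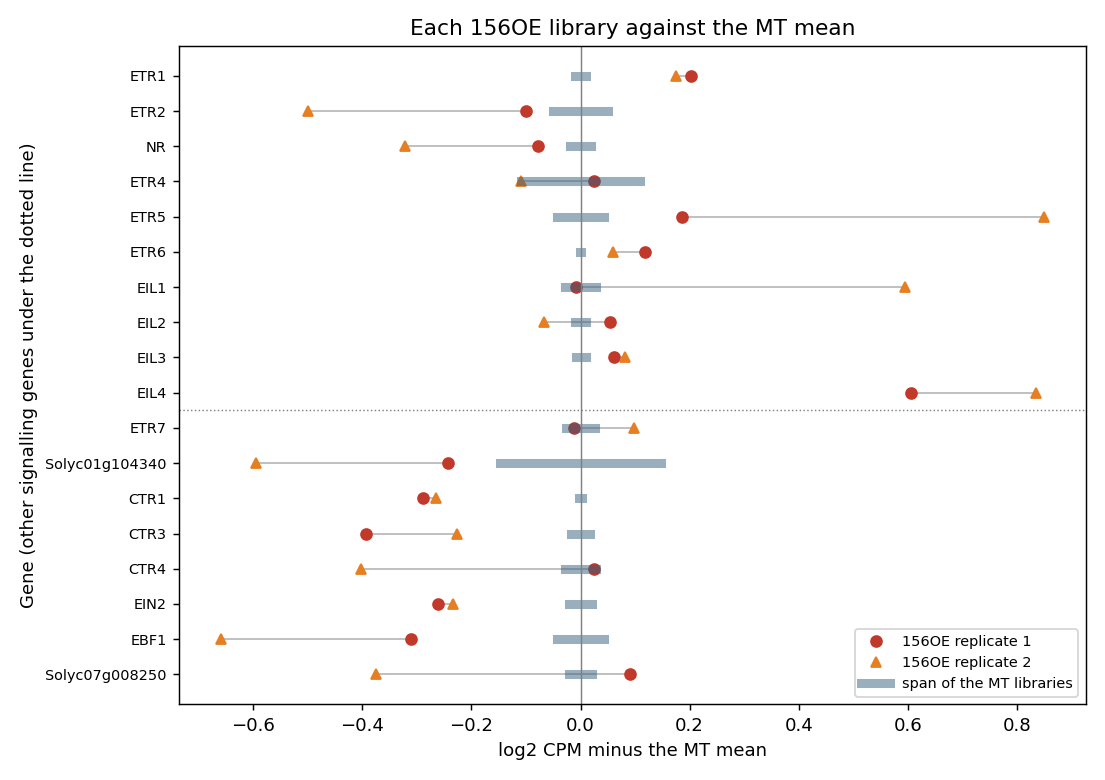
Log2 CPM of each 156OE library minus the MT mean (prior count 2), with the span of the MT libraries as a bar around 0. The 10 members stand above the dotted line and 8 other signalling genes below it. EIL4 is to the right of the MT bar in both libraries, at 0.61 and 0.84. ETR1, ETR5, ETR6 and EIL3 are also right of it in both, and NR and ETR2 are left of it in both. ETR5 and EIL1 are far right in replicate 2 only. CTR1, CTR3, EIN2, EBF1 and Solyc01g104340 are to the left in both.

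The patterns over the 4 libraries were compared by the distance between centred log2 CPM values. ETR6 and EIL3 were nearest to each other, at 0.06, and ETR2 and NR were each other's nearest, at 0.15. ETR5 and EIL1 were also each other's nearest, at 0.23, with the high value in 156OE replicate 2 in common. EIL4 had the most distant nearest gene, ETR5 at 0.37. With 4 libraries, of which 1 is shallow, these distances are a description only.

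The share of each gene in its family's summed TPM was computed within each library. EIL4 made up 17.1% and 17.5% of the summed EIL TPM in 156OE, against 12.1% and 12.3% in MT. EIL3 made up 42.1% and 37.3% in 156OE and 43.9% and 43.9% in MT, EIL1 23.8% and 31.6% in 156OE and 26.4% and 25.8% in MT, and EIL2 17.005% and 13.6% in 156OE and 17.6% and 18.1% in MT. The EIL3 and EIL2 shares were thus lower in both 156OE libraries, and the EIL1 share was below MT in replicate 1 and above it in replicate 2. Among the receptors, NR made up 19.8% and 17.4% in 156OE and 21.9% and 21.5% in MT, ETR2 11.9% and 9.38% in 156OE and 13.1% and 13.4% in MT, and ETR1 26.7% and 27.3% in 156OE and 24.8% and 23.3% in MT. The NR and ETR2 shares were lower and the ETR1 share higher in both 156OE libraries. The share of ETR5 was 8.41% and 13.98% in 156OE and 8.07% and 7.25% in MT. Subfamily I held 58.4% and 54.1% of the TPM of the 6 receptor genes in 156OE and 59.8% and 58.3% in MT. For this share, 156OE replicate 1 lay within the MT range and replicate 2 below it. The receptor shares, and the receptor sums given above, leave out the receptor gene ETR7. ETR7 had 6.72 and 6.27 TPM in 156OE and 6.996 and 7.31 TPM in MT, so shares of all receptor genes would be smaller. These shares within a library were not tested.

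**Figure D4:**
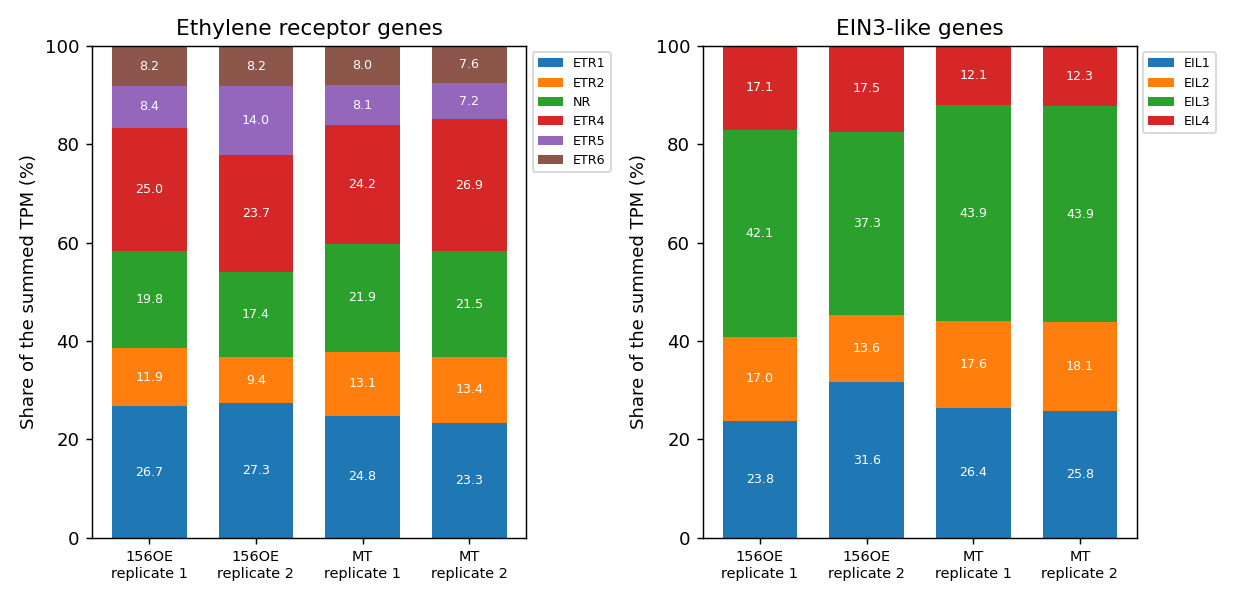
Share of each gene in the summed TPM of its family (percent) in each library, receptors left and EIN3-like genes right. EIL4 takes 17.1% and 17.5% in the 156OE libraries and 12.1% and 12.3% in the MT libraries, and ETR5 takes 13.98% in 156OE replicate 2 alone.

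A list of 8 further genes of perception and signalling held the receptor gene ETR7, the kinase genes CTR1, CTR3 and CTR4, EIN2, the F-box gene EBF1 and 2 genes whose symbols were not matched. Of these 8 genes, all tested, 0 passed in edgeR over all genes and 0 in DESeq2. At an unadjusted p of 0.05, 2 of 8 were lower and none was higher, where 5.11% of all tested genes were lower. The median log2 change was -0.26, beside 0.01 over all genes, and 5 of 8 were lower without overlap of the libraries, where 23.8% of all tested genes were. EBF1 (Solyc12g009560), an F-box gene of EIN3 turnover, had the lowest p, at 30.8 and 20.8 TPM in 156OE and 41.4 and 39.3 TPM in MT, and its log2 change was -0.46 ± 0.15 (SE; edgeR adjusted p = 0.392). Without 156OE replicate 1 the log2 change of EBF1 was -0.67, in a fit where the lone 156OE library is assumed to vary as the MT pair does. Solyc07g008250, whose symbol was not matched, had the highest mean TPM of the list over the 4 libraries, at 39.9 and 24.8 TPM in 156OE and 38.8 and 40.3 TPM in MT.

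Further signalling genes are described that were chosen after their values were seen. EIN2 (Solyc09g007870), the membrane protein that relays the signal, had 30.5 and 26.7 TPM in 156OE and 37.9 and 39.3 TPM in MT (log2 change -0.25 ± 0.10, SE; edgeR adjusted p = 0.451). CTR1 (Solyc10g083610), the kinase held active by the receptors, had 10.7 and 9.33 TPM in 156OE and 13.7 and 13.8 TPM in MT (log2 change -0.28 ± 0.12, SE; edgeR adjusted p = 0.457). CTR3 (Solyc09g009090), a related kinase gene, had 16.4 and 15.8 TPM in 156OE and 22.4 and 23.1 TPM in MT (log2 change -0.32 ± 0.12, SE; edgeR adjusted p = 0.426). A further receptor gene, ETR7 (Solyc05g055070), had 6.72 and 6.27 TPM in 156OE and 6.996 and 7.31 TPM in MT. In scaled CPM it had 17.5 and 19.0 in 156OE and 17.4 and 18.0 in MT, with a log2 change of 0.03 ± 0.16 (SE). The log2 changes come from TMM-scaled counts, and TPM is not scaled in this way. For each member, and for EBF1, EIN2, CTR1, CTR3 and ETR7, TPM lay lower in 156OE relative to MT than scaled CPM did.

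Lists of ethylene response and synthesis genes were read in the same fit. Of 9 listed response genes 7 were tested and 0 passed in edgeR or DESeq2 and 0 had an unadjusted edgeR p under 0.05, with a median log2 change of 0.37 and a median log2 gap between the 156OE libraries of 1.32. The lowest p belonged to Solyc09g089580, whose symbol was not matched, at 8.14 and 2.26 TPM in 156OE and 3.22 and 3.38 TPM in MT (edgeR adjusted p = 0.498). Without 156OE replicate 2 its log2 change was 1.38. ERF.E1 (Solyc09g075420), an ethylene response factor gene, had the highest mean TPM over the 4 libraries, at 76.3 and 85.1 TPM in 156OE and 101 and 86.2 TPM in MT. ERF5 (Solyc03g093560), another such factor and chosen after its values were seen, had 6.13 and 215 TPM in 156OE and 49.1 and 15.8 TPM in MT. Its log2 change was -2.39 without 156OE replicate 2 and 2.98 without replicate 1.

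Of 10 listed synthesis genes 9 were in the files and 5 were tested, of which 0 passed in edgeR, 1 was lower at an unadjusted p of 0.05, where 5.11% of all tested genes were, and 1 was lower in DESeq2, where 0.307% of all genes were. Both counts refer to the same gene. It was ACO6 (Solyc02g036350), an ACC oxidase gene, at 13.1 and 14.6 TPM in 156OE and 31.5 and 32.2 TPM in MT (edgeR adjusted p = 0.251, DESeq2 adjusted p = 0.0462). In edgeR its log2 change was -0.86 without 156OE replicate 1 and -1.21 without replicate 2. ACO4 (Solyc02g081190) had the highest mean TPM of the list over the 4 libraries, with 34.9 and 20.8 TPM in 156OE and 34.1 and 35.9 TPM in MT. The ACC oxidase gene ACO1 (Solyc07g049530), chosen after its values were seen, had 5.79 and 59.0 TPM in 156OE and 14.6 and 11.002 TPM in MT. Its log2 change was 2.48 without 156OE replicate 1 and -1.08 without replicate 2. ACO1 and ERF5 were low in 156OE replicate 1 and high in replicate 2, the library in which ETR5 and EIL1 were also high. The part of that library's depth or tissue make-up in these values was not tested.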

How the data were processed

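Salmon, HISAT2, Trimmomatic, SAMtools and Picard are named in the submitters' processing notes, with no order or version. The sources used here do not give the genome build or the annotation. Estimated counts per transcript (1 per gene ID) were deposited by the authors without normalization, and the deposited TPM values are scaled by effective length and add up to the same total in each library; transcript lengths came in the same files. Counts were rounded and tested with edgeR 4.0.16 in R 4.3.3 (quasi-likelihood F test, two-sided, TMM, filterByExpr, genotype as the only term, Benjamini-Hochberg adjustment over all 18385 genes tested). The SE of a log2 change is its size over the root of F. Scaled CPM values use TMM library sizes. The script was tested on simulated data. Alternatives were DESeq2 1.42.0, limma 3.58.1 on log2(TPM + 1) and log2(TPM + 0.1), other scalings, filters and dispersions, an effective-length offset, a replicate block and leaving out each library.

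Symbols were recalled from published nomenclature and kept where the RefSeq gene table (SLM_r2.1) has the symbol or a synonym on the chromosome that the ID names, at a relative place within 0.03. All 10 members passed; a close neighbour would pass too. From each pathway list the genes named are those past the threshold, or else the lowest p and the highest mean TPM; others are said to be chosen after their values were seen. The members and lists were chosen with earlier results of these data known. No sequences of these genes were used here.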

Additional observations from a re-analysis of the deposited data

How the results depend on the processing

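EIL4 kept a positive log2 change under all 16 alternatives, between 0.45 (reads summed with EIL1) and 0.84, and its call changed only without a 156OE library. The number of members called was 0 under every alternative that kept all 4 libraries, and 0 to 2 when a library was left out. The number of genes called over the whole table was 1 with all libraries, 85 with no low-count filter, 9 with robust dispersion, 208 in DESeq2 and 0 in limma with either pseudocount (1830 and 1790 genes at an unadjusted p under 0.05), and 0 to 1998 when a library was left out. In the pathway lists, 0 genes were called under every alternative that kept all 4 libraries, except 1 synthesis gene in DESeq2, which called 1.01% of all genes. List counts with a library left out are not compared, since 1 genotype then has a lone library. The log2 ratio of EIL4 to EIL1 differed by 0.25 to 0.62 without a library. Log2 changes near 0 turned sign, and the cause was not tested: EIL2 with library totals (-0.079), no filter (-0.012), at least 10 reads (-0.0081), limma (-0.18 and -0.19), DESeq2 (-0.0024), and between -0.068 and 0.054 without a library; EIL3 with library totals (-0.017) and limma (-0.11 and -0.11); ETR6 with limma (-0.078 and -0.092); ETR4 between -0.15 and 0.071 without a library; and EIL1 between -0.0097 and 0.59 without a library. With library totals the median log2 change of all genes was -0.07. The replicate numbers of the genotypes are shared only by name. Deviations of same-numbered libraries correlated at -0.251 over genes. With the replicate block 0 genes were called (1320 at an unadjusted p under 0.05), EIL4 had 0.72 (edgeR adjusted p = 0.579) and EIL2 -0.0021; with the crossed block, chosen after the data were seen, 0 genes were called (1920 at an unadjusted p under 0.05) and EIL2 had -0.0019. Family shares without a library cannot leave 1 SD of a pair, so they say nothing on stability. Depth limits 156OE replicate 2, where members had 20 to 190 reads and 3 reads equal 1.78 CPM.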
